A study of Homo sapiens with 40 samples.

Results

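The heat shock chaperone genes described here are 10 genes of the 57992 gene rows in a table of read counts from HEK293T cells, a line from human embryonic kidney. They were chosen by symbol, and every gene was found once: HSPA1A, HSPA1B, DNAJB1, HSPH1, HSPA8, HSP90AA1, HSP90AB1, HSPD1, HSPE1 and BAG3. Expression was measured by sequencing polyA RNA before (input) and after (enriched) the capture of biotinylated RNA on streptavidin beads. Of the 10 genes, 8 had enough reads to be tested, and HSPA1A and HSPA1B did not.

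The series asked whether nucleosides rich in electrons, built into new RNA by living cells, improve the capture of RNA near the peroxidase APEX2. APEX2 was fused to targeting sequences for the endoplasmic reticulum membrane (ERM), the cytosol (NES), the nuclear lamina (LMNB1) or the mitochondrial matrix (MITO). The s6G and s4U arms received 100 µM of 6-thioguanosine or 4-thiouridine for 5 h in all, and 0.5 mM biotin-phenol for the last 30 min. APEX-only arms received biotin-phenol and no thionucleoside, and unlabelled arms received neither of these. All cells, the unlabelled ones included, received 1 mM hydrogen peroxide for 1 min. ERM was studied with s6G in 4 enriched and 4 input libraries, and NES with s6G in 2 and 2. LMNB1 had s6G, APEX-only and unlabelled arms, and MITO had s6G, s4U, APEX-only and unlabelled arms, each with 2 enriched and 2 input libraries. Enriched libraries came from 6.5 µg of input RNA with 15 cycles of PCR, and input libraries from 300 ng with 11 cycles. The series design calls the libraries biological replicates of a single cell line; how each construct was expressed is not given in the sources used here.

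Chaperones bind unfolded or newly made proteins and help them reach or keep their fold. When such proteins pile up in heat, heat shock factor 1 (HSF1) is freed, forms trimers and binds heat shock elements, inverted repeats of GAA, in the promoters of these genes. HSP70 proteins take clients from J proteins and release them with the help of exchange factors, HSP90 completes the folding of kinases and receptors, and HSP60 with HSP10 folds proteins inside mitochondria; HEK293T cells, like other lines in culture, use many of these genes without heat.

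DNAJB1 (ENSG00000132002) is a J protein that hands clients to HSP70, and HSPA8 (ENSG00000109971) is the constitutive cytosolic HSP70. HSPA1A (ENSG00000204389) and HSPA1B (ENSG00000204388) are the HSP70 genes that heat induces, and their sequences are nearly identical. HSPH1 (ENSG00000120694) is an HSP110 and an exchange factor for HSP70, and BAG3 (ENSG00000151929) is a second exchange factor that also links HSP70 to small heat shock proteins and to autophagy. HSP90AA1 (ENSG00000080824) and HSP90AB1 (ENSG00000096384) encode the inducible and the constitutive cytosolic HSP90. HSPD1 (ENSG00000144381) encodes HSP60 and HSPE1 (ENSG00000115541) encodes HSP10, both imported into mitochondria.

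The promoters of DNAJB1 and HSPA8, which were higher in enriched than in input libraries with ERM and NES, are shown with those of HSP90AA1 and HSP90AB1, which were lower with ERM. Each run is the 250 bases upstream of a start site, 5′ to 3′ on the gene's strand, from RefSeq in GRCh38.p14. Capitals mark a heat shock element. In HSPA8, HSP90AA1 and HSP90AB1 it has 3 units, GAANNTTCNNGAA or TTCNNGAANNTTC, and in DNAJB1 it has 2 units, GAANNTTC. In each gene a second start site or the annotated span lies further upstream, so all 4 windows are inside the gene as RefSeq draws it.
DNAJB1: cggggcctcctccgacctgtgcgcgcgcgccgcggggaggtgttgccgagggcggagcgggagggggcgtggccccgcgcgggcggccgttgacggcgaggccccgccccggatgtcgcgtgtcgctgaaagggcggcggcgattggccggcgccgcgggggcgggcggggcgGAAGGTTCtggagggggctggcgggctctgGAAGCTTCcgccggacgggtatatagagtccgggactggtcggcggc
HSPA8: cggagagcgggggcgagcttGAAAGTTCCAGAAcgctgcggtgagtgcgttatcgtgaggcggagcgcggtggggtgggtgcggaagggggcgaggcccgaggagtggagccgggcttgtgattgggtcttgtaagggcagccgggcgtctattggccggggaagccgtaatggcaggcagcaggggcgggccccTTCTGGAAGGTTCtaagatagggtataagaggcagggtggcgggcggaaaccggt
HSP90AA1: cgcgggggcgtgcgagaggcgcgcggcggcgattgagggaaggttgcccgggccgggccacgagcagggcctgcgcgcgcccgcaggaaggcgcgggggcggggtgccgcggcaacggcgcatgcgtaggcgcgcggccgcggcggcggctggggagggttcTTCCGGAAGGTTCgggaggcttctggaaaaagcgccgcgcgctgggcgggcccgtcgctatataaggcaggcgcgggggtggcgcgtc
HSP90AB1: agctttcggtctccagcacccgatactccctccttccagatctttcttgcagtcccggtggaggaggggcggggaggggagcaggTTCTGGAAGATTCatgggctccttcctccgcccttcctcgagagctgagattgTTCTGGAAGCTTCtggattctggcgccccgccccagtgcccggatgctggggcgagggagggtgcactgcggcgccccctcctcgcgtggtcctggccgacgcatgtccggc
The DNAJB1 window is chr19:14518398-14518647 on the minus strand, with elements that begin 77 and 47 bases upstream of the start site. The HSPA8 window is chr11:123062137-123062386 on the minus strand, with elements 230 and 55 bases upstream. HSP90AA1 has 1 element of 3 units, 88 bases upstream, in chr14:102087045-102087294 on the minus strand, and HSP90AB1 has 2, at 165 and 112 bases, in chr6:44247693-44247942 on the plus strand. The HSP90AA1 window also holds a match of 2 units outside that element. It is in lower case, since matches of 2 units are marked only in DNAJB1.

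RefSeq gave 16 such windows for the 10 genes. The search covered both strands, since each form of the element is the reverse complement of the other or of itself, and every element of 3 units also holds one of 2. An element of 3 units was found in 4 of these 16 windows, from 4 of the 10 genes (HSPA8, HSP90AA1, HSP90AB1 and HSPD1). It was found in 0.441% of all 35116 RefSeq windows, searched over the same 250 bases upstream of a start site. An element of 2 units (GAANNTTC or TTCNNGAA) was found in 7 of the 16 windows, from 7 of the 10 genes, and in 11.6% of all windows. The 7 genes include HSPA1A and HSPA1B. These letters were not found in the windows of BAG3, HSPH1 and HSPE1. HSPD1 and HSPE1 lie head to head on chromosome 2 with start sites 105 bases apart, and the HSPD1 match lies within the HSPD1 gene, 245 and 240 bases upstream of an internal start site.

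Enriched libraries held 5342584 to 14496768 counts with ERM, 7761433 to 8229934 with NES, 1492243 to 8560346 with LMNB1 and 123341 to 6890758 with MITO. Input libraries held 3514076 to 12602028 counts over all constructs. The characteristics of the 4 enriched ERM libraries and of all 4 LMNB1 libraries with s6G in their titles name s4U instead; they were grouped by title, which is what the series design says, and no ERM or LMNB1 value with s6G can be given without them. Of the genes used as marks of the HEK293 line, NEFM (27.3 to 507 CPM), NEFL, GATA3 and PAX2 had reads in all 40 libraries, and LHX1 was at 0 in 33. The blood markers PTPRC, CD3E and HBB were at 0 in 33 to 37 libraries, the endothelial markers in 27 to 29, and the hepatocyte markers ALB, APOA1 and TTR in 14, 14 and 24. Of the fibroblast markers, COL1A1 ranged between 3.6 and 85.7 CPM, COL3A1 had a median of 2.23 CPM, and LUM and DCN were at 0 in 13 and 34 libraries. In the text that follows, a level is a gene's count as a share of its library, given as CPM and scaled with edgeR's TMM factors over all 40 libraries. Since it is a share, fewer cells with a transcript and less of it per cell cannot be told apart. Fold changes are on the log2 scale with the standard error of the fit, and a gene was called at an adjusted p under 0.05 over all genes tested. Where groups are said not to overlap, the share of all genes without overlap was not counted. Small groups can also be free of overlap by chance.

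HSPA1A and HSPA1B had almost no reads in any library. HSPA1A had 0 counts in 29 of 40 libraries and at most 3 counts in any, 19 in all. HSPA1B had 0 counts in 21 libraries and at most 7 counts in any, 44 in all. A count of 0 allows up to 3 counts in a library. The sources used here do not give how reads shared by the pair were counted, which makes both counts uncertain. Summed into 1 feature, the pair still had so few reads that the lack of a call says nothing about it.

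With the ERM and NES constructs, the mRNAs of DNAJB1, HSPA8 and BAG3 were higher after capture than before it. Those of HSPD1, HSPE1, HSP90AB1 and HSPH1 were lower after capture with both constructs. HSP90AA1 was lower with ERM. The question of these comparisons is how the captured RNA of cells fed s6G differed from the RNA put in. ERM and NES had no APEX-only or unlabelled arm. What was caught through nearness to APEX2 therefore cannot be told apart from what was caught otherwise.

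**Figure D1:**
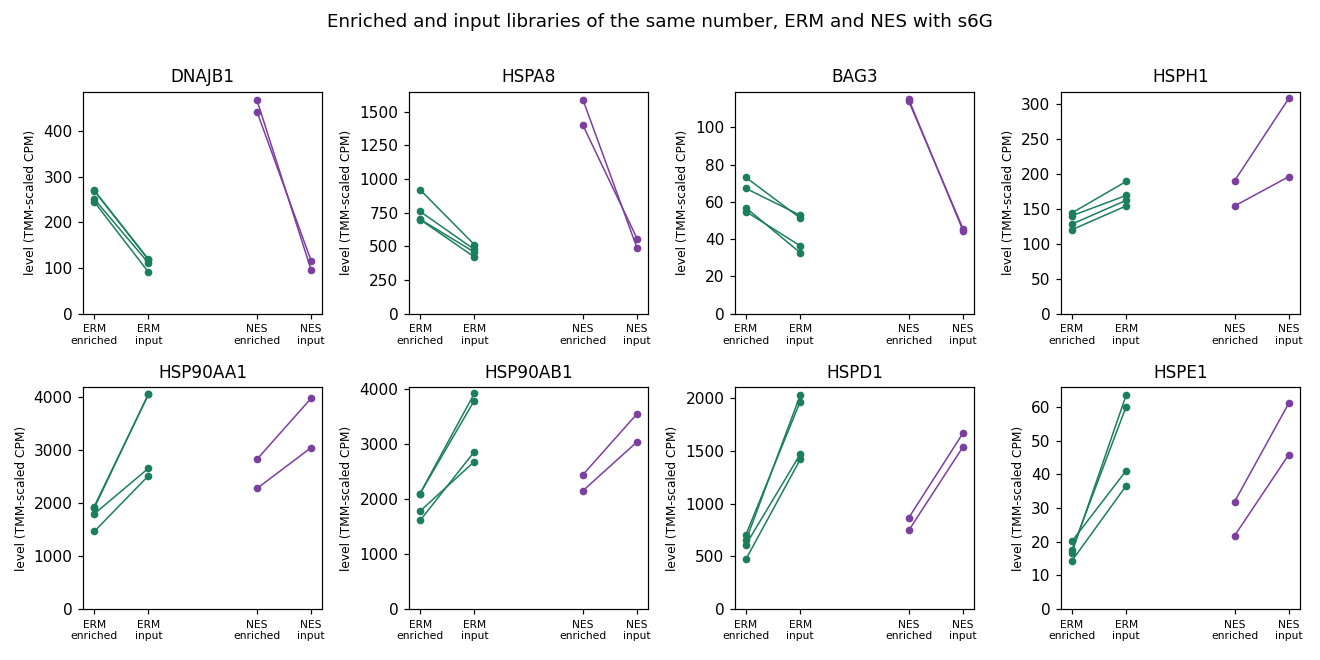
Levels of the 8 tested chaperone genes (TMM-scaled CPM, linear axis from 0) in ERM and NES libraries with s6G; each line joins the enriched library (left) and the input (right) of the same replicate number. For DNAJB1, HSPA8 and BAG3 every line falls from the enriched to the input library, and for the other 5 genes every line climbs.

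DNAJB1 had levels of 270, 269, 245 and 251 CPM in the enriched ERM libraries, against 119, 118, 90.8 and 111 CPM in their inputs. In NES libraries it had 467 and 442 CPM after capture, against 94.9 and 115 CPM in the inputs. No enriched library came near an input with either construct. The means were 259 ± 12.6 CPM in enriched and 110 ± 13.2 CPM in input ERM libraries (SD, n = 4 each), and 455 ± 17.5 CPM in enriched and 105 ± 14 CPM in input NES libraries (SD, n = 2 each). In edgeR's quasi-likelihood test the log2 fold change was 1.27 ± 0.11 with ERM (adjusted p = 1.72e-08) and 2.13 ± 0.16 with NES (adjusted p = 1.43e-08).

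HSPA8, the HSP70 that DNAJB1 serves, had 759, 920, 699 and 701 CPM in enriched ERM libraries, against 477, 513, 421 and 457 CPM in inputs. The enriched NES libraries held 1590 and 1400 CPM, against 486 and 557 CPM in their inputs. Again the groups did not overlap, and the enriched NES libraries were above all enriched ERM libraries. The log2 fold change was 0.75 ± 0.12 with ERM (edgeR, adjusted p = 2.39e-05) and 1.53 ± 0.17 with NES (adjusted p = 8.3e-07).

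BAG3, the exchange factor, had 67.2, 73.1, 54.8 and 56.8 CPM in enriched ERM libraries, against 52.8, 51.3, 36.4 and 32.7 CPM in inputs. For NES the values were 115 and 114 CPM after capture, against 44.6 and 45.6 CPM in inputs. The margin with ERM was narrow: the lowest enriched library stood just above the highest input, though within each replicate number the enriched library held 1.27 to 1.74 times the input. With NES that ratio was 2.5 to 2.58. The log2 fold change was 0.58 ± 0.15 with ERM (edgeR, adjusted p = 0.00222) and 1.35 ± 0.21 with NES (adjusted p = 2.96e-05).

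The 2 mitochondrial chaperonin genes moved the other way. HSPD1 had 474, 611, 707 and 652 CPM in enriched ERM libraries, against 1420, 1470, 1970 and 2030 CPM in inputs. With NES it had 866 and 746 CPM after capture, against 1670 and 1540 CPM in inputs. In every pair the enriched library was well below its input, by a log2 fold change of -1.47 ± 0.15 with ERM (edgeR, adjusted p = 1.01e-07) and -0.98 ± 0.21 with NES (adjusted p = 0.000639). HSPE1, its neighbour on chromosome 2, had 14.3, 20.1, 17.5 and 16.7 CPM in enriched ERM libraries, against 36.6, 41.1, 60.1 and 63.5 CPM in inputs. With NES it had 31.9 and 21.8 CPM after capture, against 61.2 and 45.9 CPM in inputs. The groups did not overlap, with log2 fold changes of -1.53 ± 0.19 with ERM (edgeR, adjusted p = 9.92e-07) and -0.98 ± 0.26 with NES (adjusted p = 0.00388). The NES call on HSPE1 was lost without NES enriched library 2 (adjusted p = 0.0754) and without NES input 1 (adjusted p = 0.0743).

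HSP90AA1 had 1460, 1790, 1930 and 1900 CPM in enriched ERM libraries, against 2510, 2650, 4040 and 4050 CPM in inputs, and 2820 and 2270 CPM after NES capture, against 3970 and 3040 CPM in inputs. HSP90AB1 had 1610, 1780, 2100 and 2100 CPM in enriched ERM libraries, against 2860, 2680, 3790 and 3920 CPM in inputs, and 2440 and 2150 CPM after NES capture, against 3550 and 3040 CPM in inputs. Both HSP90 genes were thus below their inputs in all 6 pairs, and their ERM inputs fell into a lower pair (numbers 1 and 2) and a higher pair (numbers 3 and 4). The ERM log2 fold change was -0.87 ± 0.17 for HSP90AA1 (edgeR, adjusted p = 0.000203) and -0.77 ± 0.15 for HSP90AB1 (adjusted p = 0.000164). With NES, HSP90AB1 had -0.51 ± 0.21 (edgeR, adjusted p = 0.0461), a call lost whenever any 1 of the 4 NES libraries was left out (adjusted p between 0.0877 and 0.271). HSP90AA1 had -0.45 ± 0.24 with NES, which did not pass the test (edgeR, adjusted p = 0.121). Blocking on the replicate number gave -0.45 ± 0.12 (adjusted p = 0.00354).

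HSPH1 had 120, 128, 144 and 140 CPM in enriched ERM libraries, against 154, 162, 189 and 169 CPM in inputs, and 190 and 154 CPM after NES capture, against 308 and 196 CPM in inputs. Its groups did not overlap, by a small margin. The log2 fold change was -0.31 ± 0.13 with ERM (edgeR, adjusted p = 0.044) and -0.54 ± 0.18 with NES (adjusted p = 0.0193). Scaled by total counts, the ERM call was lost (adjusted p = 0.993); without NES input 1 the NES value was -0.17 ± 0.2 (adjusted p = 0.525), and without NES enriched library 2 it was -0.37 ± 0.23 (adjusted p = 0.204). Leaving out 1 ERM library also ended the ERM call in 4 cases: enriched 1 (adjusted p = 0.0975), enriched 2 (0.0962), input 2 (0.0513) and input 3 (0.0877).

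Counted over the genes, 3 of the 8 tested chaperone genes were called higher and 5 lower with ERM, where 63.2% of all 15619 tested genes were called. With NES, 3 were called higher and 4 lower, where 55.1% of all tested genes were called. Calls of some kind were therefore common in these comparisons, and the shares by direction were 34.3% higher and 28.9% lower with ERM and 28.7% higher and 26.4% lower with NES. With the replicate block all 8 genes were called with each construct, in the same directions, where 66.7% of all tested genes were called with ERM and 59.8% with NES. Total counts in place of TMM moved the median of all genes by 0.32 with ERM, and the share of higher among all called genes to 67.9%, against 54.3% with TMM; HSPH1 was the chaperone gene whose ERM call this scaling changed.

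ERM numbers 1 and 2 had fewer counts than numbers 3 and 4, and the values were also taken within each pair of numbers. DNAJB1 had a log2 fold change of 1.25 ± 0.12 with numbers 1 and 2 and 1.33 ± 0.11 with numbers 3 and 4. In the same order, HSPA8 had 0.83 ± 0.13 and 0.7 ± 0.1, BAG3 had 0.5 ± 0.13 and 0.72 ± 0.12, and HSPD1 had -1.35 ± 0.13 and -1.53 ± 0.1. HSPE1 had -1.1 ± 0.2 with numbers 1 and 2 and -1.83 ± 0.16 with numbers 3 and 4, and HSP90AA1 had -0.6 ± 0.15 with numbers 1 and 2 and -1.05 ± 0.12 with numbers 3 and 4. In each pair of numbers 7 of the 8 genes passed edgeR's test, and HSPH1 did not (adjusted p = 0.102 with numbers 1 and 2 and 0.134 with numbers 3 and 4). The share of all tested genes called within each pair is not given. It was 63.2% with all ERM libraries, so many calls were common there too.

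The enrichment of DNAJB1, HSPA8 and BAG3 was smaller with ERM than with NES, but without the replicate block the difference itself did not pass the test over all genes. The ERM minus NES difference in log2 fold change was -0.86 ± 0.19 for DNAJB1 (edgeR, adjusted p = 0.107), -0.78 ± 0.21 for HSPA8 (adjusted p = 0.147) and -0.78 ± 0.26 for BAG3 (adjusted p = 0.206). None of the 8 genes was called, and 0.0064% of all tested genes were. With the replicate number as a block, since an enriched library and the input of its number are the same replicate in the series design, 4 of the 8 were called, where 6.1% of all tested genes were. These were DNAJB1 (-0.85 ± 0.14, adjusted p = 0.00307), HSPA8 (-0.79 ± 0.13, adjusted p = 0.00395), BAG3 (-0.76 ± 0.16, adjusted p = 0.0138) and HSPD1 (-0.48 ± 0.13, adjusted p = 0.0387). Without the block, DNAJB1, HSPA8 and BAG3 also passed with ERM numbers 1 and 2 alone (edgeR, adjusted p = 0.00208, 0.0213 and 0.00524) and with numbers 3 and 4 alone (adjusted p = 0.00145, 0.000577 and 0.0177). With numbers 3 and 4 alone, HSP90AA1 (-0.61 ± 0.16, edgeR adjusted p = 0.017), HSPD1 (-0.56 ± 0.14, adjusted p = 0.0116) and HSPE1 (-0.85 ± 0.23, adjusted p = 0.0158) passed as well. The share of all tested genes called with either pair of numbers is not given. The authors' deposited table for ERM over NES has a log2 fold change for which the file does not say whether inputs were used, so it may be another quantity than this difference. The authors' deposited table gives -0.76 for DNAJB1, -0.90 for HSPA8, -0.81 for BAG3 and -0.32 for HSPH1, with p-values of 1.51e-08, 6.03e-09, 3.57e-06 and 0.0339. For HSPH1 the difference in enrichment had the other sign, 0.22 ± 0.23 (edgeR, adjusted p = 0.694). The 5 genes other than DNAJB1, HSPA8 and BAG3 had 95% intervals that spanned 0 in the fit of all ERM and NES libraries without the block, the widest for HSPE1 at -1.22 to 0.12.

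**Figure D2:**
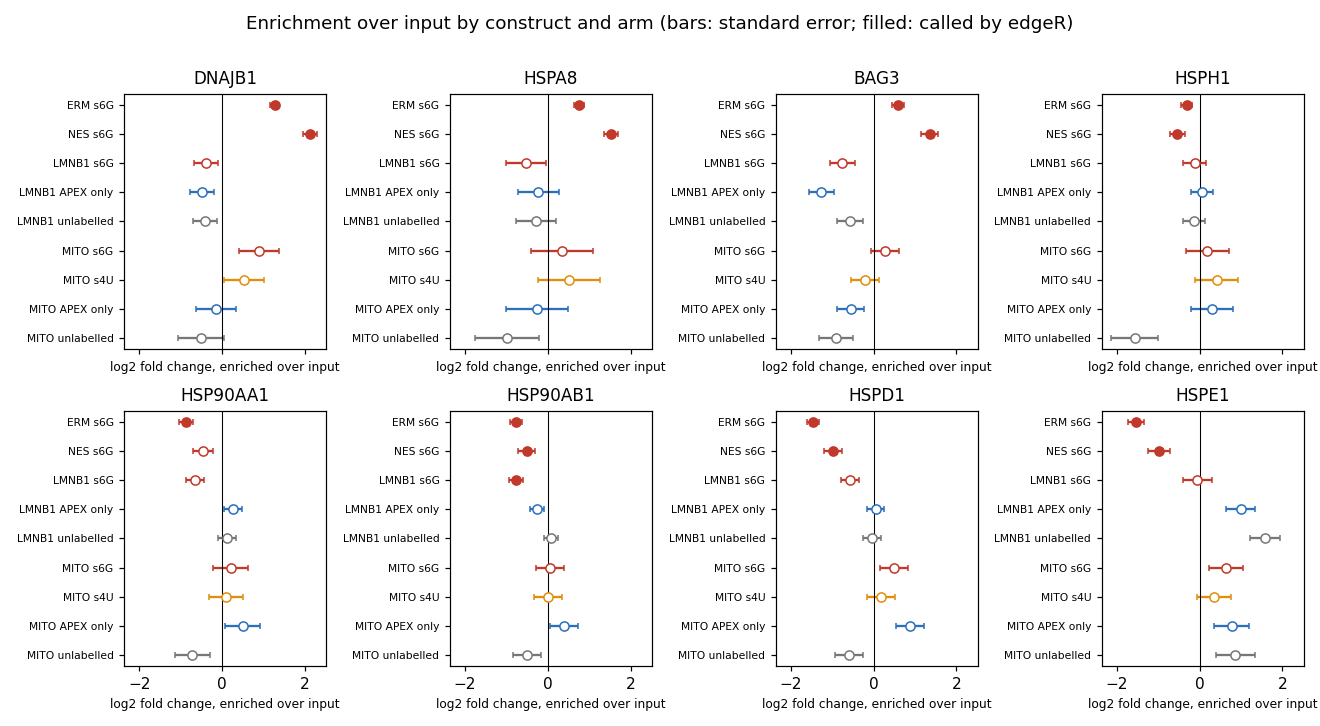
Log2 fold change of enriched over input libraries (x axis) for each construct and arm (y axis), 1 panel per gene; bars are standard errors of the fit and filled points passed edgeR's test. DNAJB1, HSPA8 and BAG3 are right of 0 with ERM and NES and left of 0 in all 3 LMNB1 arms, and HSPD1 and HSPE1 are furthest left with ERM.

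At the nuclear lamina the chaperone mRNAs were at or below their input levels with s6G under TMM scaling, and only HSP90AB1 passed the test. With total counts the log2 fold change was above 0 for HSPH1 (0.09 ± 0.26) and HSPE1 (0.14 ± 0.32), and neither was called. HSP90AB1 had 1570 and 1400 CPM in enriched LMNB1 libraries with s6G, against 2760 and 2870 CPM in inputs, a log2 fold change of -0.78 ± 0.17 (edgeR, adjusted p = 0.0105). The call was lost without enriched library 2 (adjusted p = 0.0776) or input 2 (adjusted p = 0.0527). HSP90AA1 had 2180 and 1500 CPM, against 3350 and 3030 CPM in inputs, with -0.65 ± 0.22 (edgeR, adjusted p = 0.0753; with the replicate block -0.67 ± 0.2, adjusted p = 0.0417). In both HSP90 genes the enriched libraries lay below both inputs. So 1 of 8 genes was called, where 13% of all 16525 tested genes were, and 7.64% lower; with total counts the median of all genes moved by 0.22 and the share of higher among called genes was 63.7%, against 41.3% with TMM.

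DNAJB1, HSPA8 and BAG3 did not pass the test at the lamina. DNAJB1 had 98.9 and 80.9 CPM after LMNB1 capture with s6G, against 162 and 98.2 CPM in inputs, groups that overlapped (-0.39 ± 0.29, edgeR adjusted p = 0.401). HSPA8 had 699 and 362 CPM, against 1170 and 513 CPM in inputs (-0.53 ± 0.49, adjusted p = 0.508), and BAG3 had 19.2 and 25.1 CPM, against 30.8 and 53.1 CPM in inputs (-0.76 ± 0.3, adjusted p = 0.121). HSPD1 had 1010 and 751 CPM, against 1480 and 1400 CPM in inputs, groups that did not overlap (-0.57 ± 0.21, edgeR adjusted p = 0.0967). HSPH1 had 191 and 158 CPM, against 229 and 192 CPM in inputs (-0.12 ± 0.27, edgeR adjusted p = 0.798), and HSPE1 had 67.8 and 32.7 CPM, against 68.1 and 46.5 CPM in inputs (-0.06 ± 0.35, edgeR adjusted p = 0.928). In the authors' deposited table the s6G column has -0.94 for HSP90AB1 (adjusted p = 0.00143), -0.81 for HSP90AA1 (adjusted p = 0.0187) and -0.73 for HSPD1 (adjusted p = 0.0294). The column name does not say which libraries were compared, so it may be another quantity than enriched over input. In HSPA8 and DNAJB1 the library numbered 1 was above the one numbered 2 both in enriched and in input RNA.

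Without a thionucleoside, no chaperone gene was called at the lamina in edgeR's test (1.43% of all tested genes were called with APEX only and 0.0363% in the unlabelled arm). BAG3 had 29 and 24.4 CPM in enriched APEX-only libraries, against 62.6 and 70.3 CPM in inputs, a log2 fold change of -1.27 ± 0.3 (edgeR, adjusted p = 0.059; with the replicate block adjusted p = 0.0264). HSPE1 had 86 and 140 CPM in enriched unlabelled libraries, against 50.3 and 30.7 CPM in inputs (1.59 ± 0.36, adjusted p = 0.104), and 57.8 and 68.6 CPM in enriched APEX-only libraries, against 33.3 and 32.7 CPM in inputs (0.99 ± 0.35, adjusted p = 0.186). The unlabelled value passed without enriched library 1 (1.86 ± 0.38, adjusted p = 0.022). In the authors' deposited table the APEX-only column has -1.30 for BAG3 (adjusted p = 7.32e-05) and 0.95 for HSPE1 (adjusted p = 0.0047), both under 0.05. The name of that column does not say which libraries were compared either. In both arms the HSPE1 groups were free of overlap, with the captured RNA higher, and the unlabelled cells had received no biotin-phenol. The difference in enrichment between s6G and unlabelled arms was -1.65 ± 0.5 for HSPE1 (edgeR, adjusted p = 0.0891; with the replicate block -1.71 ± 0.42, adjusted p = 0.0446), where 2.69% of all tested genes were called, or 5.72% with the block. For HSP90AB1 it was -0.85 ± 0.24 (edgeR, adjusted p = 0.0745). The HSPE1 difference also passed without enriched library 1 of the s6G arm (-2.22 ± 0.51, adjusted p = 0.0482) or of the unlabelled arm (-1.93 ± 0.5, adjusted p = 0.028). No chaperone gene was called for s6G against APEX only or APEX only against unlabelled, where 0% of all tested genes were.

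With the mitochondrial matrix construct, no chaperone gene was called in any arm without the block. In the s6G arm DNAJB1 had 258 and 197 CPM after capture, against 151 and 102 CPM in inputs. Its groups did not overlap, yet the log2 fold change of 0.89 ± 0.49 did not pass (edgeR, adjusted p = 0.635), and it did with the replicate block (0.9 ± 0.24, adjusted p = 0.00886). The share of all tested genes called in the s6G arm was 0.317% without the block and 6.82% with it. In the APEX-only arm HSPD1 had 1590 and 2720 CPM after capture, against 952 and 1500 CPM in inputs, with 0.87 ± 0.34 (edgeR, adjusted p = 0.452; with the block 0.86 ± 0.25, adjusted p = 0.0186). HSPE1 had 62.3 and 115 CPM in those enriched libraries, against 36.3 and 71.9 CPM in inputs, so that groups overlapped while each pair moved up (0.78 ± 0.42, adjusted p = 0.617; with the block 0.79 ± 0.23, adjusted p = 0.0235). There 0.271% of all tested genes were called, or 7.15% with the block, and the s4U arm called no chaperone gene without the block, where 0.112% of all tested genes were called, or with it, where 4.98% were.

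**Figure D3:**
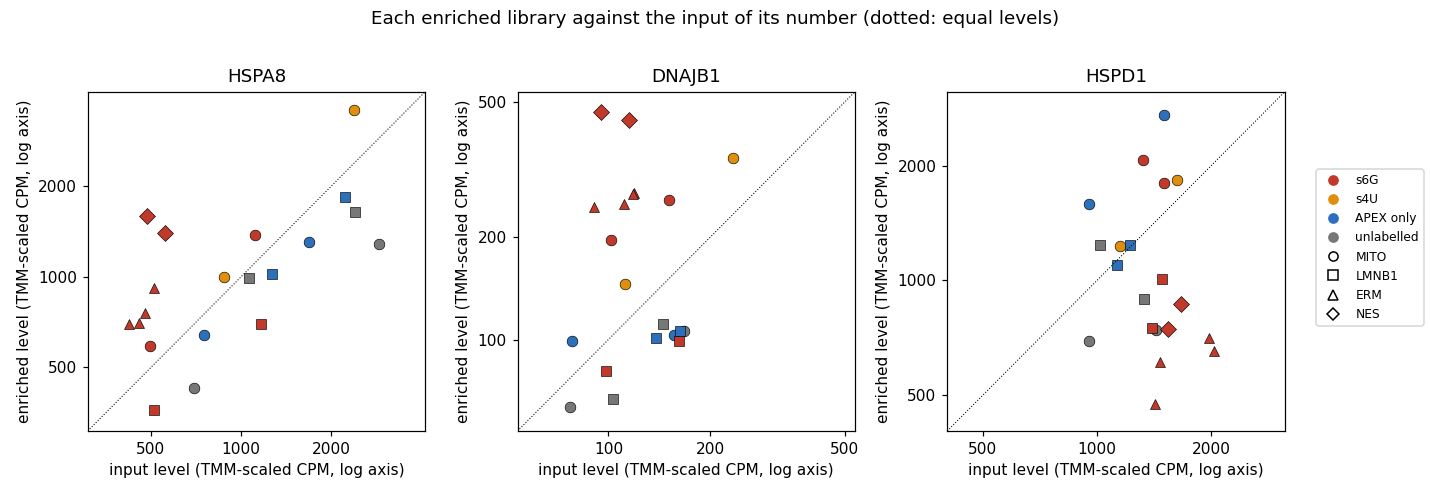
Level in each enriched library (y axis) against the input of the same number (x axis), both in TMM-scaled CPM on log axes, for HSPA8, DNAJB1 and HSPD1; colour gives the arm, shape gives the construct and the dotted line marks equal levels. NES (diamonds) and ERM (triangles) lie above the line for HSPA8 and DNAJB1 and below it for HSPD1, and MITO libraries with s6G, s4U or APEX only (circles) lie above it for HSPD1.

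The sign of several of these MITO values depended on the scaling. Genes of the mitochondrial genome held 36.1% and 58.2% of the counts of the enriched s6G libraries, and with total counts in place of TMM the median of all genes moved by -0.88 with s6G, -0.45 with s4U and -0.73 with APEX only. DNAJB1 then had 0.04 in the s6G arm, and HSPD1 had -0.41 with s6G and 0.15 with APEX only. Both genes still lay above the shifted median of all genes, which was -0.87 with s6G and -0.74 with APEX only. Among all called genes, the share called higher with s6G was 1.35% with total counts, against 91.7% with TMM.

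In unlabelled MITO cells the enriched libraries were shallow (123341 and 842177 counts), and HSPH1 had 33.4 and 106 CPM there, against 358 and 172 CPM in inputs. The first of these rests on 6 counts. The log2 fold change was -1.57 ± 0.57 (edgeR, adjusted p = 0.0899; with the block -1.28 ± 0.32, adjusted p = 0.00385), where 9.87% of all tested genes were called, or 20.5% with the block. HSPA8 (-0.8 ± 0.25, adjusted p = 0.017) and HSPE1 (1.03 ± 0.3, adjusted p = 0.00923) were called in this arm with the block alone. Differences in enrichment between MITO arms called no chaperone gene without the block. With it, none was called between s6G, s4U and APEX only, and the labelled arms exceeded the unlabelled arm in HSPH1 by 1.46 ± 0.42 with s6G (adjusted p = 0.0197), 1.65 ± 0.42 with s4U (adjusted p = 0.00839) and 1.55 ± 0.42 with APEX only (adjusted p = 0.0178). The shares of all tested genes called with the block were 10.4%, 10.6% and 6.96% in those 3 differences, against 0.376%, 0.264% and 0.0396% without it. The other calls with the block were DNAJB1 (1.18 ± 0.37), HSPA8 (1.12 ± 0.35) and HSPD1 (1.05 ± 0.36) for s6G, HSPA8 (1.22 ± 0.35) for s4U, and HSPD1 (1.41 ± 0.36) and HSP90AA1 (1.17 ± 0.38) for APEX only. Total counts in place of TMM moved the median of all genes in these differences by -1.09 with s6G, -0.67 with s4U and -0.94 with APEX only. The share of higher among called genes without the block was then 2.97% with s6G and 16.9% with s4U, against 73.7% and 72.5% with TMM. HSPH1 had 0.7 ± 0.72 with s6G, 1.33 ± 0.72 with s4U and 0.95 ± 0.72 with APEX only under total counts without the block, and HSPD1 had -0.1 ± 0.44 with s6G and 0.46 ± 0.44 with APEX only. The block was not run with total counts, so whether its calls depend on TMM was not tested. The part of the low depth in the unlabelled values was not tested either.

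To set the s6G arms side by side, all 20 libraries with s6G were fitted together, a comparison added after the data were seen. DNAJB1, BAG3 and HSPA8 were enriched more strongly with NES than with LMNB1, by 2.63 ± 0.33 (edgeR, adjusted p = 4.84e-06), 2.24 ± 0.36 (adjusted p = 7.04e-05) and 2.17 ± 0.55 (adjusted p = 0.00471) on the log2 scale. These 3 of 8 genes were called where 34.6% of all 16139 tested genes were (19.2% in this direction), and HSPE1 was added with the block (-0.77 ± 0.24, adjusted p = 0.009, 48.5% of all tested genes called) or without LMNB1 enriched library 2 (-1.16 ± 0.4, adjusted p = 0.0289). Against MITO, NES was higher in DNAJB1 (1.28 ± 0.32, adjusted p = 0.00907) and BAG3 (1.13 ± 0.37, adjusted p = 0.0363), and lower in HSPD1 (-1.43 ± 0.31, adjusted p = 0.00354) and HSPE1 (-1.57 ± 0.43, adjusted p = 0.0143). HSPA8 had 1.23 ± 0.55 (adjusted p = 0.124) and passed without MITO enriched library 1 (1.95 ± 0.56, adjusted p = 0.0189), without MITO input 2 (1.71 ± 0.54, adjusted p = 0.0365) and with the block (1.25 ± 0.18, adjusted p = 1.08e-06). In all, 4 of 8 genes were called, where 18.5% of all tested genes were called (10.3% higher and 8.19% lower with NES), and all 8 with the block, where 34.8% were. Total counts moved the median of all genes in this comparison by 0.9 and ended the calls on HSPD1 (-0.51 ± 0.3, adjusted p = 0.187) and HSPE1 (-0.66 ± 0.4, adjusted p = 0.214). Leaving out MITO input 1 ended the calls on DNAJB1 (1.05 ± 0.34, adjusted p = 0.0516) and HSPE1 (-1.49 ± 0.5, adjusted p = 0.0606), as did NES enriched library 2 (adjusted p = 0.0802) and NES input 1 (adjusted p = 0.0954) for HSPE1, and BAG3 kept its call without 1 of the 8 libraries only when that was MITO input 1 (adjusted p between 0.0525 and 0.124 without any other).

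In the inputs, which show the RNA of the cells before any capture, no chaperone gene passed the test between arms in the fits without a replicate block. HSPA8 varied most, 6.89 times between the lowest and the highest of 20 inputs, followed by BAG3 (3.04 times) and DNAJB1 (3.03 times), while HSPD1 varied least (2.13 times). The 10 inputs with s6G had a median HSPA8 level of 505 CPM (421 to 1170), the 2 with s4U had 876 and 2390 CPM, and the 8 without a thionucleoside had a median of 1480 CPM (697 to 2900). The ranges overlap, and the lowest s6G values come from ERM and NES, which have no arm without s6G, so construct and nucleoside cannot be told apart in these medians.

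**Figure D4:**
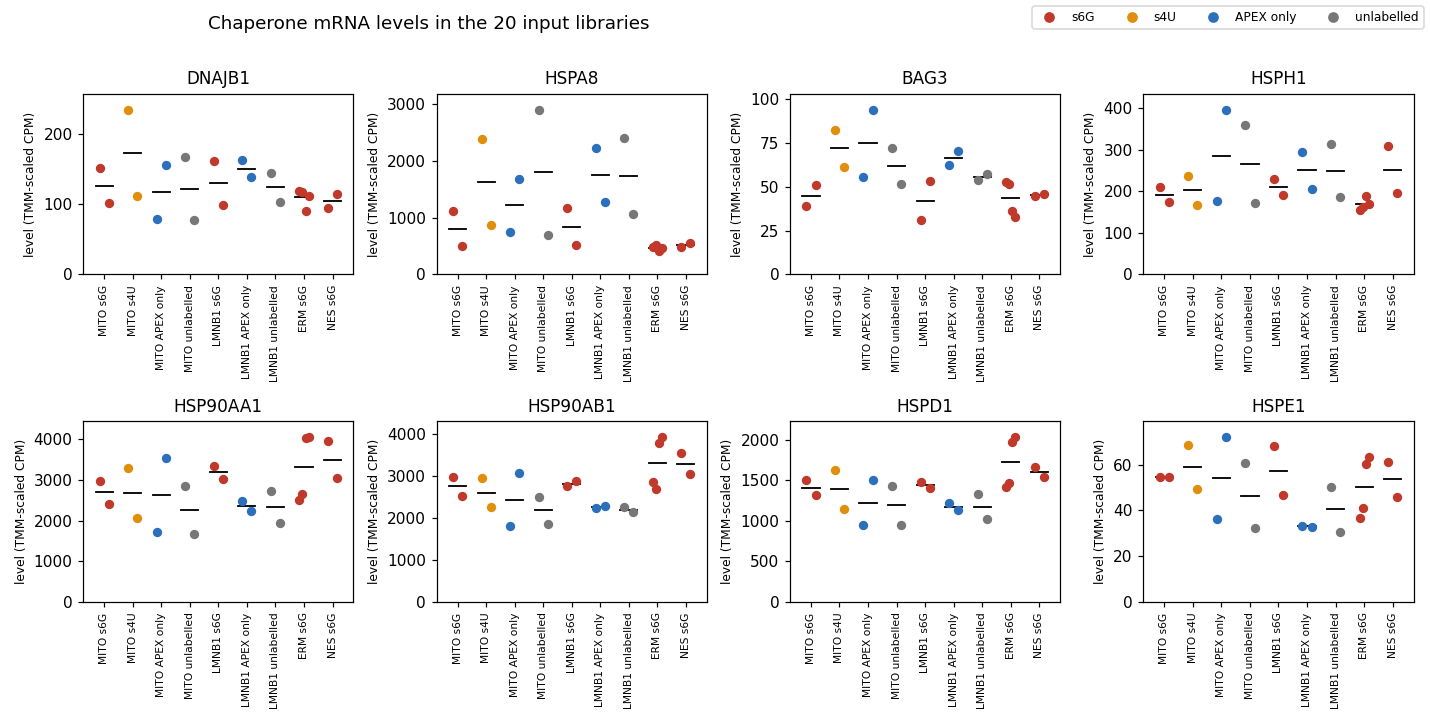
Levels of the 8 tested chaperone genes (TMM-scaled CPM, linear axis from 0) in the 20 input libraries by construct and arm; points are libraries, lines are group means and colour gives the nucleoside. HSPA8 is spread over the widest range, with all 6 ERM and NES inputs between 421 and 557 CPM.

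BAG3 showed a similar order, with 30.8 to 53.1 CPM (median 45.1) in the s6G inputs, 61.5 and 82.1 CPM with s4U and 51.7 to 93.7 CPM (median 59.8) without a thionucleoside. HSPE1 ran the other way, with medians of 54.6 CPM with s6G and 34.8 CPM without, in ranges that overlapped (36.6 to 68.1 CPM with s6G and 30.7 to 71.9 CPM without). The median HSP90AA1 level was 3040 CPM with s6G and 2360 CPM without a thionucleoside, that of HSP90AB1 was 2920 CPM with s6G and 2240 CPM without, and that of HSPD1 was 1490 CPM with s6G and 1180 CPM without. HSPH1 had medians of 190 CPM with s6G and 250 CPM without, and DNAJB1 had 113 CPM with s6G and 142 CPM without. All of these ranges overlapped as well.

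Within 1 construct, the s6G inputs of LMNB1 had HSPA8 levels of 1170 and 513 CPM, against 2230 and 1270 CPM in APEX-only inputs, a log2 fold change of -1.04 ± 0.49 (edgeR, adjusted p = 0.447, 95% interval -2.1 to 0.02). BAG3 had 30.8 and 53.1 CPM with s6G, against 62.6 and 70.3 CPM with APEX only (-0.65 ± 0.3, adjusted p = 0.434), and HSPE1 had 68.1 and 46.5 CPM with s6G, against 33.3 and 32.7 CPM with APEX only (0.81 ± 0.35, adjusted p = 0.403). Neither BAG3 nor HSPE1 overlapped between arms, and HSPA8 did not either, but its libraries differed as much within an arm. HSP90AA1, HSP90AB1 and HSPD1 were free of overlap as well. The share of all genes without overlap was not counted, so this says nothing particular about chaperone genes. With MITO, the s6G inputs held 39.2 and 50.7 CPM of BAG3, against 55.7 and 93.7 CPM with APEX only (-0.7 ± 0.33, edgeR adjusted p = 0.585), and 1110 and 497 CPM of HSPA8, against 754 and 1690 CPM with APEX only (-0.57 ± 0.76, adjusted p = 0.904). No chaperone gene was called in either comparison, where 0.127% and 0.0528% of all tested genes were. For s4U over APEX only, DNAJB1 had the highest value, 0.6 ± 0.48, with a 95% interval of -0.42 to 1.62 (edgeR, adjusted p = 1). In the inputs for s4U over APEX only, s6G over s4U and APEX only over unlabelled with MITO, APEX only over unlabelled with LMNB1, and the s6G effect of MITO minus that of LMNB1, edgeR called 0% of all tested genes; 583, 708, 29, 106 and 297 genes had an unadjusted p under 0.05.

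Other genes of the chaperone network were counted from lists, and those named were chosen after their values were seen. With ERM and NES, most J proteins were called higher after capture. Subunits of the CCT ring, the cytosolic chaperonin that folds actin and tubulin, were called lower. Over all tested genes, 34.3% were called higher and 28.9% lower with ERM, and 28.7% higher and 26.4% lower with NES. Among 14 J proteins, 10 were called higher and 3 lower with ERM (median log2 fold change 0.71, against 0.11 over all genes), and 9 higher and 2 lower with NES (median 0.79, against 0.01). DNAJC5 had 1.23 ± 0.1 with ERM (edgeR, adjusted p = 8.8e-09) and 1.51 ± 0.15 with NES (adjusted p = 1.47e-07). DNAJC7 had -0.78 ± 0.12 with ERM (adjusted p = 1.34e-05) and -0.67 ± 0.17 with NES (adjusted p = 0.0025). Of 6 other HSP70 and HSP110 genes, 4 were higher and 1 lower with ERM, and 3 higher and 2 lower with NES; HSPA13, an HSP70 of the endoplasmic reticulum, had 2.06 ± 0.13 with ERM and 1.66 ± 0.19 with NES.

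**Figure D5:**
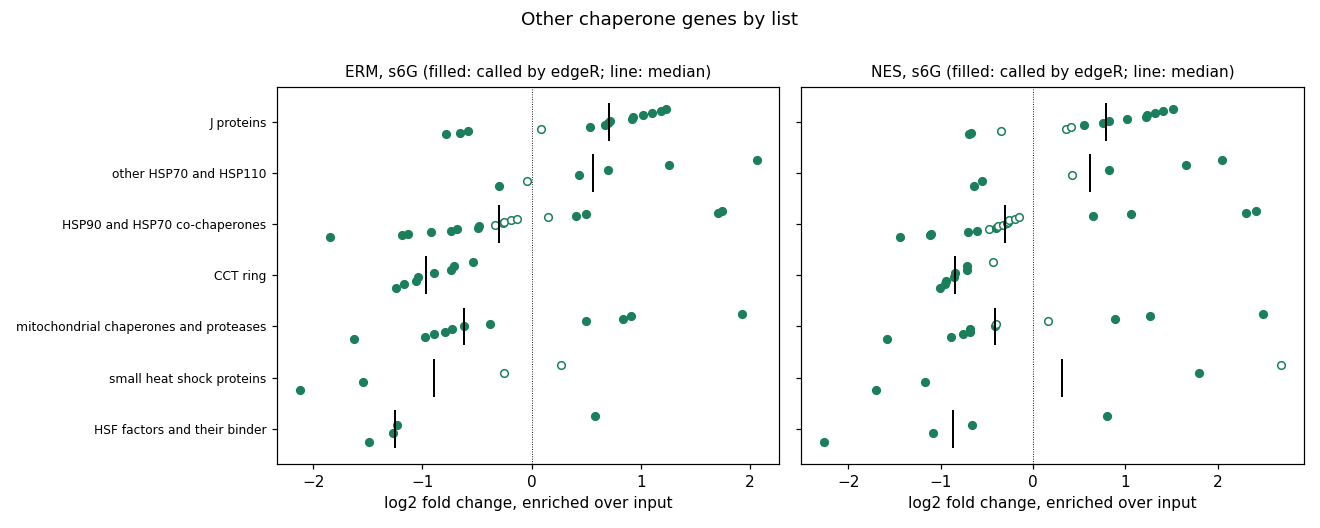
Log2 fold change of enriched over input libraries (x axis) for genes of 7 chaperone lists (y axis), ERM on the left and NES on the right; filled points passed edgeR's test and vertical lines are medians. All 8 CCT subunits are left of 0 in both panels, and most J proteins are right of 0.

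All 8 CCT subunits were called lower with ERM (median -0.97) and 7 of 8 with NES (median -0.85). CCT4 had -1.04 ± 0.12 with ERM (edgeR, adjusted p = 3.54e-07) and -0.94 ± 0.17 with NES (adjusted p = 0.000106). With ERM, where 63.2% of all tested genes were called, 4 of 18 co-chaperones of HSP90 and HSP70 were higher and 8 lower. With NES, where 55.1% of all tested genes were called, 4 were higher and 6 lower. The median was -0.3 with both constructs. The BAG genes were the higher ones: BAG4 had 1.74 ± 0.11 with ERM and 2.31 ± 0.15 with NES, and BAG5 had 1.71 ± 0.11 with ERM and 2.41 ± 0.17 with NES. ST13, which joins HSP70 to HSP90 machinery, had -1.85 ± 0.13 with ERM and -1.44 ± 0.18 with NES.

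Among 11 tested mitochondrial chaperones and proteases, whose mRNAs come from nuclear genes as HSPD1 and HSPE1 do, 4 were higher and 7 lower with ERM and 3 higher and 6 lower with NES. TRAP1, the HSP90 of mitochondria, had -1.63 ± 0.14 with ERM and -1.58 ± 0.19 with NES, whereas GRPEL2, an exchange factor for mitochondrial HSP70, had 1.93 ± 0.11 with ERM and 2.49 ± 0.17 with NES. HSPA9, the mitochondrial HSP70, had -0.79 ± 0.12 with ERM and -0.68 ± 0.18 with NES. Of 4 tested small heat shock proteins, 0 were higher and 2 lower with ERM and 1 higher and 2 lower with NES; HSPB1 had -2.12 ± 0.17 with ERM and -1.7 ± 0.25 with NES. HSF1 itself had -1.27 ± 0.12 with ERM and -1.08 ± 0.18 with NES, HSF2 had 0.58 ± 0.11 with ERM and 0.8 ± 0.16 with NES, and of the 4 genes of that list 1 was higher and 3 lower with each construct. In LMNB1 libraries with s6G, where 13% of all tested genes were called, against 63.2% with ERM and 55.1% with NES, the calls were 3 CCT subunits, 5 co-chaperones, 1 small heat shock protein and 1 mitochondrial gene lower and 1 J protein, 1 co-chaperone and 1 HSF gene higher. No gene of these lists was called in any input comparison or in the s6G, s4U and APEX-only arms of MITO.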

How the data were processed

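PolyA RNA of HEK293T cells was sequenced in 40 libraries. The authors deposited gene counts, whole numbers with no normalization, per the file headers. Per the submitters' processing notes, the tools were DESeq2, deepTools 2.5.3, HTSeq 0.7.2, HISAT2 2.1.0 and SAMtools and the builds hg38 and GRCh38. Which annotation and strand option the counting used was not stated, so antisense and overlapping genes cannot be told apart from the chaperone genes. The authors also deposited log2(TPM + 1) values for MITO groups and 2 tables of log2 fold changes with p-values (ERM over NES, and LMNB1), which were read for comparison and not used in any test.

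Groups follow the titles. The test of the counts was the quasi-likelihood test of edgeR 4.0.16, run in R 4.3.3 (TMM, filterByExpr, robust shrinkage, Benjamini-Hochberg adjustment over all tested genes, called under 0.05), in separate fits of 16 MITO, 12 ERM and NES, 12 LMNB1 and 20 input libraries, and of 20 s6G libraries added after the data were seen; differences between arms are interaction terms. The MITO fit and the ERM and NES fit were tested on simulated data, and the other fits were not. Displayed levels, CPM scaled by TMM over all libraries, gave log2 ratios within 0.07 of the fits, except for LMNB1 unlabelled (0.11), LMNB1 s6G (0.16) and MITO unlabelled (0.35).

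An enriched library and the input of its number are the same biological replicate in the series design, so the numbers pair them; their deviations from group means correlated with r of 0.49 to 0.64 in the labelled MITO arms, 0.15 to 0.2 for ERM, 0.19 for NES, 0.5 and 0.35 for LMNB1 with s6G and APEX only, and 0.1 and 0.04 in the unlabelled MITO and LMNB1 arms. The block is arm by number. Nothing beyond the series design says that libraries of a group came from separate cultures, and p-values measure the spread between these libraries.

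By the rule for named genes, all 10 chaperone genes were looked at in every comparison and the other lists as counts; a tested chaperone gene with no value printed for a comparison did not pass its test without the block; list genes given with values were picked after their values were seen. One marker gene of the HEK293 line is not reported here. The genes and lists were chosen with earlier results of these data known. Alternatives were RLE or total-count scaling, TMM without mitochondrial genes, no filter or a filter of 5 CPM in 2 libraries, DESeq2 1.42.0, only the compared groups, HSPA1A and HSPA1B summed, each library left out, the replicate block and, added later, the pairs of ERM numbers. Promoters were read from RefSeq (GRCh38.p14) with Python; all 10 genes matched. The floor of 3 counts covers counting error only. The intervals come from the fit and hold the spread between libraries as well.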

Additional observations from a re-analysis of the deposited data

Results flagged for a closer look

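Differences in enrichment between constructs were tested for the s6G arms in a comparison added after the data were seen, and 7 values passed. The enrichment with NES minus that with LMNB1 was 2.63 for DNAJB1, 2.17 for HSPA8 and 2.24 for BAG3 on the log2 scale, where 34.6% of all tested genes were called. The enrichment with NES minus that with MITO was 1.28 for DNAJB1, 1.13 for BAG3, -1.43 for HSPD1 and -1.57 for HSPE1, where 18.5% of all tested genes were called. Against MITO, total counts in place of TMM ended the calls on HSPD1 and HSPE1. Leaving out single libraries ended those on DNAJB1, BAG3 and HSPE1. Constructs were also separate sets of libraries, so construct and set cannot be told apart. In the 16 ERM groups of 4 libraries by gene, no library lay apart from the other 3 by Dixon's criterion, which chance meets in about 1 of 20 groups.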

How the results depend on the processing

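Of 431 counts of called chaperone genes under alternative settings, 391 were within 1.5 times the main count; of 3448 single values, 30 lost and 70 gained a call, none reversed while called, and 261 uncalled values changed sign. The number called for the ERM minus NES difference, 0 in the main fit, was 2 with no filter, 3 with DESeq2, 4 with the replicate block, 3 with ERM numbers 1 and 2 and 6 with numbers 3 and 4. For LMNB1 it was 1 with s6G (2 with TMM without mitochondrial genes, 3 with DESeq2, 2 with the block), 0 with APEX only (2 with no filter, 1 with DESeq2, 1 with the block, 2 with only the compared groups), 0 unlabelled (1 with no filter, 1 with DESeq2) and 0 for s6G minus unlabelled (1, 2 and 1 with no filter, DESeq2 and the block). For MITO it was 0 throughout and became 1 with the block with s6G; 1 with total counts (BAG3, lower) and 2 with the block with APEX only; 1 with no filter and 3 with the block unlabelled; and, for s6G, s4U and APEX only minus unlabelled, 1 with no filter each and 4, 2 and 3 with the block. For NES minus MITO, 4 became 8 with the block. For s6G over APEX-only inputs of LMNB1, 0 became 1 with the block (HSPA8, -1.1 ± 0.17, edgeR adjusted p = 0.0161, with 1.46% of all tested genes called). That block joins inputs of different arms by their number, and these are not stated to share a culture. Apart from the main fits and the block, the share of all tested genes called under each setting is not given. Counts of chaperone genes under those other settings therefore cannot be told apart from a general change in calls.

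Input libraries of 1 number are not stated to share a culture; those of LMNB1 correlated with r of 0.43 to 0.55, and the MITO APEX-only inputs correlated negatively with the others of their number (r of -0.39 to -0.6); with their numbers crossed, 44 genes and no chaperone gene were called for s6G over APEX only and 1 gene for s4U over APEX only. Leaving out 1 library gave 7 to 8 called chaperone genes with ERM, 4 to 6 with NES, 0 to 1 for LMNB1 s6G, LMNB1 unlabelled and LMNB1 s6G minus unlabelled, 3 to 4 for NES minus LMNB1 and 2 to 4 for NES minus MITO, and 0 in every other comparison. With 2 libraries a group, precision rests on few libraries, and a lone library left in an arm is assumed to vary like the rest of its fit.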

Other observations

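In the authors' deposited log2(TPM + 1) values for MITO APEX-only inputs, the counts behind 1 TPM, taken relative to HSP90AB1, followed the annotated span of the gene with its introns for HSPH1 (3.54, against a RefSeq span ratio of 3.57), HSP90AA1 (7.62 against 7.67) and BAG3 (3.42 against 3.44). They did not for DNAJB1 (1.94 against 5.93) and HSPD1 (3.91 against 1.78), and for that reason no level was compared between genes.

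Over the 20 inputs, the genes whose log2 CPM was most like that of DNAJB1 were CTCF (Pearson's r 0.898), PUS1 (0.896), EIF5 (0.895), TFIP11 (0.889) and DOHH (0.883), among 8562 genes ranked. For HSP90AB1 they were PRDX1 (0.946), SSRP1 (0.944), TPM3 (0.941), PSMB2 (0.938) and XRCC6 (0.934). These are descriptions, since inputs share constructs, arms and depth.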
